A study of Arachis hypogaea with 30 samples.

Results

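The genes described here are 2 peanut polygalacturonase genes, Ah15g483500 on chromosome 15 and Ah05g308500 on chromosome 5, out of 82955 genes in the deposited table. They were chosen by their read counts in the salt groups against 0 h in earlier results of these data, where both were nearly lost, and were taken here by their identifiers. Their decline in salt is therefore a description and carries no test below. Tests are given for the difference between the cultivars at each time, the ratio of the genes in water and the other genes of their family. These contrasts did not choose the genes, but those on the 2 genes use the same counts. Choosing genes nearly lost in salt also left few counts for comparing the cultivars from 12 h on. The cultivars' changes in salt are also compared, but those changes are what chose the genes, so that test is not independent of the choice.

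RNA came from whole seedlings of Arachis hypogaea, the cultivated peanut, an allotetraploid legume whose genome joins a pair of related subgenomes. Seedlings of HY33 (labelled as salt tolerant) and HY9115 (labelled as salt sensitive) were grown in hydroponic boxes and used at the 3-leaf stage. Each cultivar has 5 groups of 3 libraries, 1 in water at 0 h and 4 after 3, 12, 24 and 48 h in 100 mM NaCl, which makes 30 libraries in 10 groups. Water was sampled at 0 h alone, so the effects of salt, elapsed time and time of day cannot be told apart.

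Polygalacturonases are secreted enzymes that cut homogalacturonan, the pectin chain of galacturonic acid units that glues plant cells together in the middle lamella and stiffens the growing wall. In Arabidopsis, members of the family are known for cell separation, in organ abscission, pod opening, pollen release and the emergence of lateral roots through the overlying tissue, and for the expansion of growing cells. They act with pectinesterases, which strip methyl groups from the chain so that it can be cut, while galacturonosyltransferases build the chain. Which of these processes the peanut genes serve is not given in the files.

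Ah15g483500 lies on the minus strand of chromosome 15 from 152308841 to 152315404, with an exonic length of 1978 bases. Ah05g308500 lies on the plus strand of chromosome 5 from 92758028 to 92764752, with an exonic length of 1918 bases. Coordinates are those of the deposited table, and the genome build is not given in the sources used here. The table annotates both with the KEGG orthology identifier K01184 (polygalacturonase) and a pathway of pentose and glucuronate interconversion, and 0 of the 2 have a GO term. No other gene of the table overlaps either of them.

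The 30 libraries held 13072324 to 18788677 counts each, and the 10 most abundant genes took 2.80 to 6.48% of a library. Replicates of a group correlated at 0.981 to 0.989 across genes on a log scale, and the counts of every replicate pair differed by more than sampling noise, with a chi-square of 2.05 to 8.07 for each degree of freedom. The labels call the replicates biological but do not say that they were separate plants or pools of plants. The p-values here measure only the spread among libraries of a group, and part of that spread may be technical. Levels are given as FPKM, counts scaled by exonic length and library total, in which 1 count of either gene is worth about 0.03. In whole-plant RNA, fewer cells of a type and less RNA per cell cannot be told apart.

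In water, both genes were well expressed, and more so in the salt-sensitive cultivar. The 3 HY33 libraries at 0 h held Ah15g483500 at 30.56, 27.19 and 27.38 FPKM, from 924, 862 and 954 counts. In the 3 HY9115 libraries at 0 h the same gene stood at 73.23, 56.36 and 75.48 FPKM, from 2432, 1766 and 2292 counts. All 3 HY9115 libraries were above all 3 HY33 libraries, and the means were 68.4 ± 10.5 and 28.4 ± 1.89 FPKM (SD, n = 3). Ah05g308500 gave 22.75, 19.49 and 20.36 FPKM in HY33 at 0 h, from 667, 599 and 688 counts. HY9115 gave 41.15, 29.59 and 41.23 FPKM of Ah05g308500 at 0 h, from 1325, 899 and 1214 counts. The libraries of the cultivars again did not overlap, with means of 37.3 ± 6.70 FPKM in HY9115 and 20.9 ± 1.69 in HY33 (SD, n = 3).

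Within 3 h in salt most of either transcript was gone. At 3 h HY33 held Ah15g483500 at 3.31, 3.12 and 3.15 FPKM, and HY9115 held it at 4.35, 2.93 and 3.78 FPKM. Ah05g308500 was at 2.45, 3.08 and 3.61 FPKM in HY33 and at 2.48, 2.49 and 2.35 FPKM in HY9115 at that time. Every library at 3 h was far below every library at 0 h of both cultivars, while the cultivars now overlapped for both genes. Summed over the 3 libraries and scaled to the normalised library sizes, the counts of Ah15g483500 at 3 h were 9.06-fold lower than at 0 h in HY33 (95% exact interval 8.05 to 10.2) and 18.4-fold lower in HY9115 (16.6 to 20.5). Ah05g308500 was 6.88-fold lower in HY33 (6.08 to 7.81) and 15.2-fold lower in HY9115 (13.3 to 17.4). These intervals cover counting error only.

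From 12 h on, single libraries held between 0 and 6 counts of either gene. For Ah15g483500 at 12 h the HY33 libraries held 6, 0 and 5 counts, and the HY9115 libraries held 4, 1 and 3. At 24 h they held 3, 2 and 5 counts in HY33 and 3, 1 and 0 in HY9115. At 48 h 2 of the 3 HY33 libraries held 1 count each and the third held 0, and all 3 HY9115 libraries were at 0. Ah15g483500 thus stood at or under 0.21 FPKM in every library from 12 h on, and the groups at 12, 24 and 48 h overlapped with their neighbours in the order of levels. Ah05g308500 gave 4, 2 and 1 counts in HY33 and 0, 6 and 0 in HY9115 at 12 h. At 24 h it gave 1, 2 and 0 counts in HY33 and 0, 4 and 0 in HY9115, and at 48 h 0, 1 and 0 in HY33 and 1, 0 and 1 in HY9115. In HY9115, 1 library therefore carried all counts of Ah05g308500 at 12 h and 1 other library all of them at 24 h, each numbered replicate 2.

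**Figure D1:**
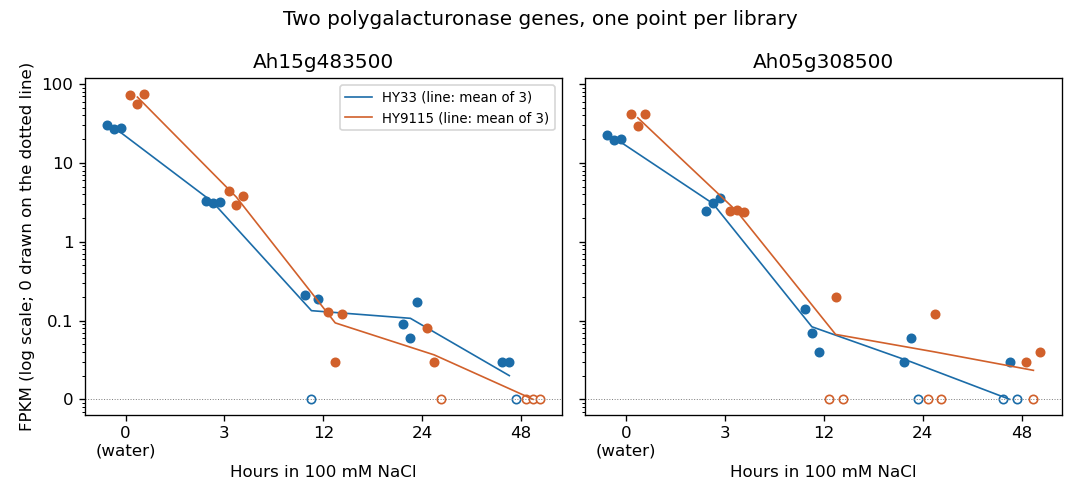
The FPKM of each gene (log scale, with libraries at 0 drawn as open points on the dotted line) is plotted against hours in 100 mM NaCl, 1 point per library, with lines through the means of 3. Libraries at 0 h sit between 19.49 and 75.48 FPKM, those at 3 h between 2.35 and 4.35, and those from 12 h on at 0.21 or below.

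As a share of the level in water, Ah15g483500 was at 0.496% in HY33 and 0.143% in HY9115 at 12 h, and Ah05g308500 was at 0.443% and 0.202%. At 24 h the counts of Ah15g483500 were 249-fold lower than at 0 h in HY33 (95% exact interval 135 to 519) and 1633-fold lower in HY9115 (638 to 5996). Ah05g308500 at 24 h was 591-fold lower in HY33, from 3 counts (202 to 2868), and 865-fold lower in HY9115 (338 to 3177). By 48 h Ah15g483500 was 1060-fold lower in HY33, from 2 counts (293 to 8757). In HY9115 at 48 h it was at least 1822-fold lower, computed against 3 counts over the group because all 3 libraries were at 0. Ah05g308500 at 48 h was 1512-fold lower in HY33, from 1 count (271 to 59744), and 1448-fold lower in HY9115, from 2 counts (400 to 11959). The upper ends of these intervals show that depth, at 0 to 2 counts a group, no longer resolves how low the genes were.

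On edgeR's log2 scale the changes of Ah15g483500 in HY33 were -3.18 ± 0.15 (SE) at 3 h, -7.62 ± 0.25 at 12 h and -7.91 ± 0.26 at 24 h. The same gene changed by -4.20 ± 0.15, -9.39 ± 0.25 and -10.53 ± 0.27 in HY9115 at those times. Ah05g308500 changed by -2.79 ± 0.18 at 3 h and -7.76 ± 0.32 at 12 h in HY33, and by -3.92 ± 0.18, -8.87 ± 0.32 and -9.62 ± 0.33 at 3, 12 and 24 h in HY9115. Changes that rest on 3 or fewer counts are given as ratios of counts alone. The SE is the change over the square root of edgeR's F statistic. At 12 and 24 h, where few counts were left, it understates the error, and the exact intervals of the counts are wider. Ordered by the size of the fall among the 42311 genes tested, Ah15g483500 was the 254th at 3 h and the 29th at 12 h in HY33, and the 47th and the 4th at those times in HY9115. Ah05g308500 was the 379th and then the 25th in HY33, and the 62nd and then the 11th in HY9115. Most of the largest falls at 3 h thus belonged to other genes, and the members came near the top at 12 h.

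The order of the group means was the same for both genes down to the 3 h groups. HY9115 at 0 h was highest, HY33 at 0 h followed, and neither overlapped with the next group. The cultivars at 3 h came next and overlapped with each other for both genes, with HY9115 ahead for Ah15g483500 (3.69 ± 0.715 against 3.19 ± 0.102 FPKM) and HY33 ahead for Ah05g308500 (3.05 ± 0.581 against 2.44 ± 0.0781). No 3 h library overlapped with a 12 h library, and from 12 h on each group overlapped with the next in line.

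The cultivars differed in water. In water Ah15g483500 was lower in HY33 than in HY9115 by a log2 difference of -1.26 ± 0.12 (SE), with an adjusted p of 9.8e-10 by edgeR's quasi-likelihood test, and so passed the test, which asks for an adjusted p under 0.05 and a log2 difference of at least 1. It is 1 of the 2.75% of genes tested that were lower in HY33 at 0 h by this rule. Ah05g308500 differed in the same direction by -0.83 ± 0.15, with an edgeR adjusted p of 7.0e-05, and stayed under the size the rule asks for. The SDs of 3 libraries span a smaller range than either gap between cultivars. Organ marker sums differed between the cultivars in water as well. The summed FPKM of 46 seed reserve and glyoxylate cycle genes was 721 ± 44.5 in HY33 and 1772 ± 248 in HY9115 at 0 h (SD, n = 3). The root marker sum was 3043 ± 72.7 and 2774 ± 41.4, and the green shoot sum 30784 ± 363 and 25392 ± 1542. Their part in the difference of the members was not tested.

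At 3 h the difference between cultivars was not resolved for either gene. The log2 difference of HY33 minus HY9115 was -0.24 ± 0.17 for Ah15g483500 (edgeR adjusted p = 0.37) and 0.30 ± 0.21 for Ah05g308500 (edgeR adjusted p = 0.37). A span of 2 SE either side reached from -0.59 to 0.11 for Ah15g483500 and from -0.13 to 0.72 for Ah05g308500, so a gap as wide as that in water lay outside it for both. Neither passed, where 5.85% of all genes tested passed in either direction at 3 h. At 12 h the differences were 0.52 ± 0.76 and 0.28 ± 0.97, and at 24 h they were 1.37 ± 0.89 and -0.26 ± 1.25. None of these passed, where 3.76% of all genes passed at 12 h and 5.16% at 24 h. With SEs of 0.76 to 1.25 at these counts, small differences between cultivars could not be resolved at this depth. For Ah15g483500 a span of 2 SE either side reached from -0.42 to 3.16 at 24 h. A gap as wide as that in water, and in its direction, lay outside the spans of this gene at 12 and 24 h. For Ah05g308500 the span was -1.65 to 2.22 at 12 h and -2.75 to 2.24 at 24 h. Its gap in water lay inside both. At so few counts the SE may understate the error, as for the salt changes above. No difference is given at 48 h, where both cultivars held 3 or fewer counts.

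The fall over the first 3 h was smaller in HY33 than in HY9115 for both genes. The difference of the cultivars' log2 changes, HY33 minus HY9115, was 1.02 ± 0.21 for Ah15g483500 (edgeR adjusted p = 0.00098) and 1.12 ± 0.26 for Ah05g308500 (edgeR adjusted p = 0.0027), and both passed the test. By the same rule 1.50% of all genes tested had a positive difference at 3 h. This contrast is built from the salt changes for which the genes were chosen and is no independent support, and it combines the gap in water with the near-equal levels at 3 h described above. For Ah15g483500 the value lies close to the threshold of 1 and fell to between 0.88 and 0.99 when any 1 of 4 libraries was left out (HY33 replicate 3 or HY9115 replicate 1 or 3 at 0 h, or HY9115 replicate 2 at 3 h), at edgeR adjusted p-values up to 0.0055. For Ah05g308500 it stayed at or above 1.00 in all 12 fits that left out 1 library of the groups compared.

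At 12 h the same difference of changes was 1.77 ± 0.79 for Ah15g483500 (edgeR adjusted p = 0.13) and 1.11 ± 1.02 for Ah05g308500 (edgeR adjusted p = 0.51). At 24 h it was 2.63 ± 0.92 (edgeR adjusted p = 0.063) and 0.57 ± 1.49 (edgeR adjusted p = 0.88). None of these 4 passed, where 4.52% of all genes passed in either direction at 12 h and 3.74% at 24 h. The value for Ah15g483500 at 24 h rests on 10 counts in HY33 and 4 in HY9115, and it passed under 4 other ways of fitting and when either of 2 HY9115 libraries was left out. Without HY33 replicate 2 at 12 h the value for Ah15g483500 at 12 h was 2.35 and passed, and without HY9115 replicate 2 at 12 h, the only one with counts there, the value for Ah05g308500 was 5.30 and passed.

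The balance between the genes was set against the length of each. Over the 6 libraries in water the log2 ratio of the FPKM of Ah15g483500 to that of Ah05g308500 was 0.66 ± 0.24 (SD, n = 6), a 1.58-fold excess, and it was above 0 in 6 of 6 libraries. An exact two-sided sign-flip permutation test gave p = 0.03125, the smallest that 6 libraries can give. The 3 HY33 libraries had ratios of 0.43, 0.48 and 0.43 in water, with a mean of 0.44 ± 0.03 (SD, n = 3). HY9115 had a mean ratio of 0.88 ± 0.05 (SD, n = 3) in water, and each of its libraries was above each HY33 library. An exact two-sided permutation test of the difference of -0.43 gave p = 0.1, the smallest that 3 against 3 can give. At 3 h the ratio was 0.09 ± 0.32 in HY33 and 0.58 ± 0.30 in HY9115 (SD, n = 3), the libraries overlapped, and the difference of -0.49 had an exact permutation p of 0.2. Reads that fit near-identical copies in both subgenomes may have been split or lost in counting, so the ratio is uncertain to that extent.

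**Figure D2:**
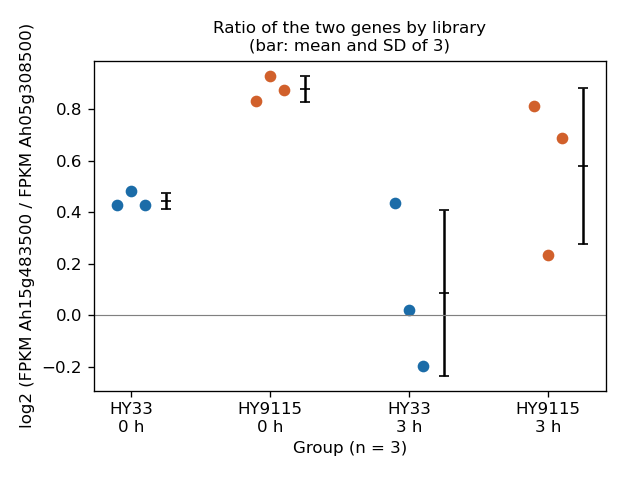
The log2 ratio of the FPKM of Ah15g483500 to that of Ah05g308500 is plotted per library at 0 and 3 h, with the mean and SD of 3 beside the points. In water the HY9115 libraries lie above the HY33 libraries, with means of 0.88 and 0.44, and at 3 h they overlap.

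Each gene lies close to another gene annotated with K01184. Ah15g483200 is on the same strand of chromosome 15 from 152285280 to 152290752, 18.1 kb away with 2 genes between. Ah05g308800 is on the same strand of chromosome 5 from 92787946 to 92792742, 23.2 kb away with 2 genes between. Among the 10 tested genes on either side, 8 KEGG identifiers occur in both stretches, in the same order along the strand of the polygalacturonases. The pairs thus sit in matching stretches of chromosomes 15 and 5.

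The near neighbours were less abundant and also lost counts. Ah15g483200 held 73, 78 and 79 counts in HY33 at 0 h and 0 in all 3 libraries at 48 h, which is at least 59.3-fold lower against 3 counts over the group. In HY9115 it held 282, 233 and 242 counts at 0 h and 2, 2 and 4 at 48 h, a 79.7-fold lower level (95% exact interval 40.2 to 185). At 0 h its log2 difference of HY33 minus HY9115 was -1.73 ± 0.24 (edgeR adjusted p = 1.1e-06), the same direction as for Ah15g483500. Ah05g308800, which was under the level filter and is named here after its values were seen, held 66 counts in HY33 and 83 in HY9115 over 3 libraries at 0 h. At 48 h it held 0 in all 6 libraries, which is at least 17.0-fold lower in HY33 and at least 23.3-fold lower in HY9115.

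Neighbours within each stretch moved in both directions. Over the 20 tested neighbours the median log2 change lay between -0.03 and 0.33 on chromosome 15 and between 0.05 and 0.15 on chromosome 5 in the 8 salt comparisons. At 48 h 4 of the 20 on chromosome 15 fell and 2 rose in each cultivar, with Ah15g483200 among those that fell, where 20.1% of all genes tested fell in HY33 and 21.3% in HY9115. On chromosome 5, 2 fell in each cultivar, and 3 rose in HY33 and 2 in HY9115. Of all genes tested 14.3% rose in HY33 and 14.5% in HY9115 at 48 h. The counts on both chromosomes lie near or below the shares of all genes. The falls included Ah05g308000, from 10.3 to 0.870 FPKM in HY33 and from 8.10 to 1.03 in HY9115, and Ah15g484300, from 5.59 to 0.713 and from 4.59 to 0.620, both annotated with K15283 and named after their values were seen. The median difference between cultivars at 0 h was -0.07 and -0.05. On the side away from the second polygalacturonase, the nearest annotated tested gene is Ah15g483700 for Ah15g483500 and Ah05g308400 for Ah05g308500, both annotated as DNA (cytosine-5) methyltransferases. Ah05g308400 stood at 16.7 FPKM at 0 h and 15.0 at 48 h in HY33, and at 17.9 and 15.9 in HY9115. Ah15g483700, with 49 and 68 counts at 0 h, changed by a log2 value of -0.28 at 48 h in HY33 (edgeR adjusted p = 0.53) and fell by 1.07 in HY9115 (edgeR adjusted p = 0.014), a call lost when either of 2 HY9115 libraries was left out. Ah05g308700, a protein transport gene between Ah05g308500 and Ah05g308800, was at 7.13 FPKM in HY9115 and 0.07 in HY33 at 0 h, a log2 difference of -6.53 (edgeR adjusted p = 2.0e-13). It is the only one of the 20 neighbours on chromosome 5 that passed between cultivars at 0 h.

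**Figure D3:**
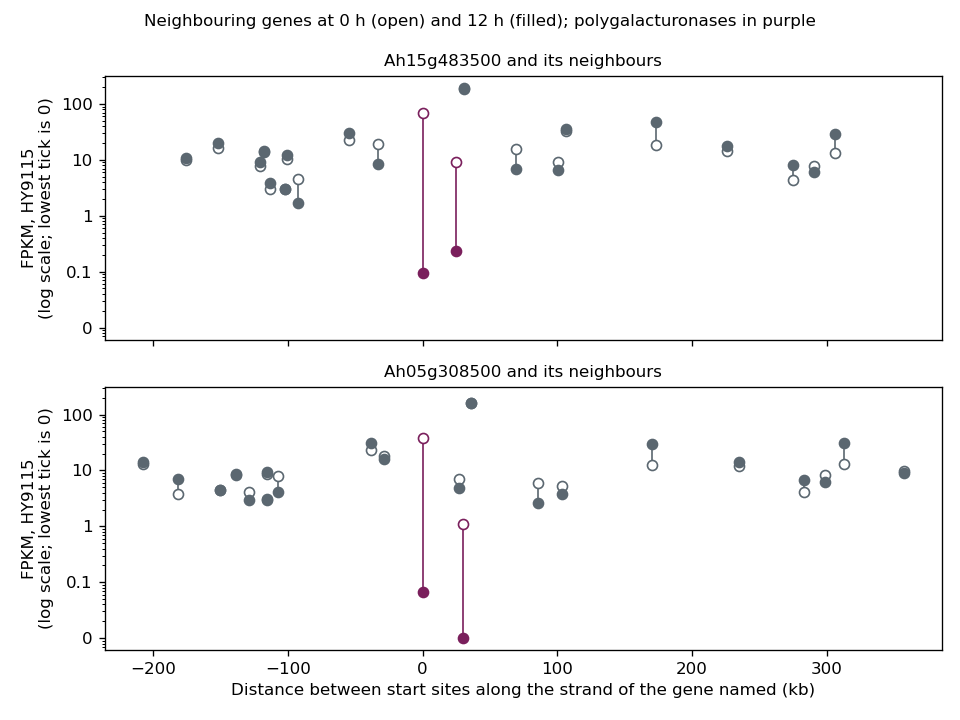
The mean FPKM in HY9115 (n = 3, log scale, with 0 at the lowest tick) of each gene and its tested neighbours is plotted against the distance between start sites in kb, open at 0 h and filled at 12 h. The polygalacturonases, in purple, drop while most neighbours stay near their level in water, with medians over 20 neighbours of 0.28 on the log2 scale on chromosome 15 and 0.15 on chromosome 5.

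Among genes annotated as polygalacturonases, the members were among the most abundant in water and added almost nothing from 12 h on. The list, by K01184 or the GO term for polygalacturonase activity, holds 76 genes, of which 33 passed the level filter, the members included. Of the other 43, 14 had no count at all. Ah03g578600 (K11188), Ah07g009100 (K14791) and Ah11g200100 (K10527) were tested and entered the list by the GO term alone. Their KEGG identifiers are others than those of polygalacturonases, so they may not be polygalacturonases. By FPKM at 0 h Ah15g483500 and Ah05g308500 stood 1st and 4th among the 33 in HY9115, and 3rd and 5th in HY33. Together they made up 15.3 ± 1.31% of the summed FPKM of the list in HY33 and 23.5 ± 1.89% in HY9115 at 0 h (SD, n = 3). At 3 h that share was 3.34 ± 0.180% in HY33 and 3.46 ± 0.474% in HY9115, and at 48 h it was 0.0209% and 0.0214%. The summed FPKM of the other genes went from 274 to 149 in HY33 and from 342 to 108 in HY9115 between 0 and 48 h. Part of this fall is scaling by library total. Relative to the normalised library sizes it shifted the median of all genes at 48 h by -0.38 in HY33 and -0.26 in HY9115 (log2).

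**Figure D4:**
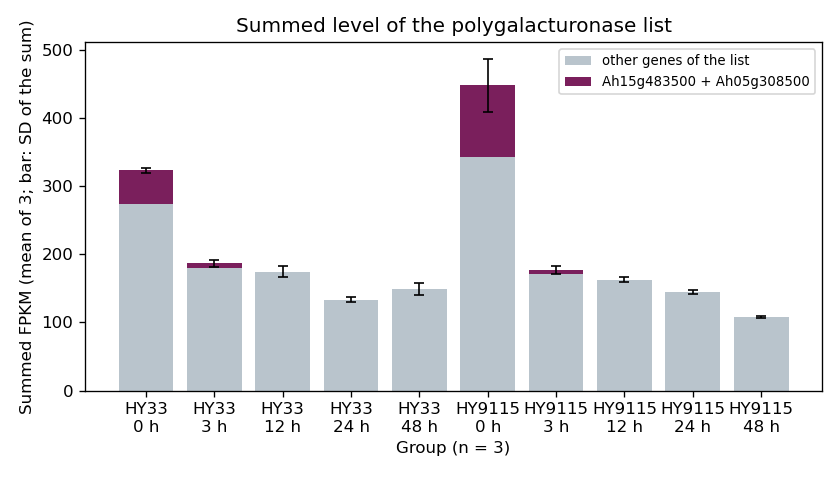
The summed FPKM of the polygalacturonase list is drawn per group (bars, mean of 3, with the SD of the sum), split into the 2 members and the other genes. The members add 15.3% in HY33 and 23.5% in HY9115 at 0 h and under 0.13% of the sum from 12 h on.

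More of the other 31 tested polygalacturonases fell than rose in every salt comparison. In HY33, 9, 8, 13 and 12 of the 31 fell at 3, 12, 24 and 48 h, where 7.45%, 12.9%, 13.4% and 20.1% of all genes tested fell. In HY9115, 10, 11, 14 and 16 fell, where 6.43%, 12.4%, 10.5% and 21.3% of all genes fell. Risers numbered 1, 3, 4 and 5 in HY33 against a background of 6.61%, 11.0%, 10.4% and 14.3%, and 1, 3, 2 and 5 in HY9115 against 8.27%, 11.4%, 9.20% and 14.5%. The median log2 change of the 31 ran from -0.25 at 3 h in HY33 to -1.33 at 48 h in HY9115, while the median of all genes tested lay between -0.03 and 0.03. Over all 8 comparisons 20 of the 31 fell at least once, where 12703 of all 42311 genes tested did, and 8 rose at least once, where 10042 of the 42311 did. Of the 31, 6 did neither, and 2 fell every time, Ah15g483200 and Ah13g536800. Of the genes with other KEGG identifiers named above, Ah07g009100 and Ah11g200100 are among the 6, and Ah03g578600 fell in 5 of the 8 comparisons.

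The other tested genes that share K01184 with the members fell too, with different timing. Of 18 such genes 6 were tested, and the 4 besides the members are Ah15g483200, Ah13g536800, Ah06g066100 and Ah16g100300. All 4 fell at 24 and at 48 h in both cultivars, and 0 rose at any time. At 24 and 48 h 13.4% and 20.1% of all genes tested fell in HY33, and 10.5% and 21.3% in HY9115. Ah13g536800 held 11.8 ± 1.53 FPKM in HY33 and 21.1 ± 3.43 in HY9115 at 0 h (SD, n = 3), and 0.863 ± 0.143 and 0.833 ± 0.151 at 48 h. It fell by 2.87 in HY33 and by 3.78 in HY9115 on the log2 scale at 3 h (edgeR adjusted p = 2.4e-16 and 1.4e-19). Ah06g066100 and Ah16g100300 did not fall at 3 h, with log2 changes of 0.35 and 0.46 in HY33 and -0.02 and 0.01 in HY9115. At 48 h Ah06g066100 fell by 2.94 in HY33 and by 2.88 in HY9115, and Ah16g100300 fell by 2.59 and by 3.07. All of these genes kept a measurable level at 48 h in both cultivars, except Ah15g483200, which was at 0 counts in HY33.

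The 2 most abundant of the other genes in water still stood at 9.72 FPKM or above at 48 h. Ah03g371500 went from 37.6 ± 1.22 to 19.1 ± 1.49 FPKM in HY33 and from 58.6 ± 5.49 to 10.3 ± 0.302 in HY9115 between 0 and 48 h (SD, n = 3). Ah04g362500 went from 45.9 ± 1.82 to 23.8 ± 2.25 in HY33 and from 46.2 ± 4.60 to 9.72 ± 1.53 in HY9115. In HY33 at 48 h both were lower, but neither passed, since log2 changes of -0.60 and -0.57 lay under the size the rule asks for. In HY9115 both passed and fell by 2.25 and by 1.99. Ah14g114700 had the largest mean fall after Ah15g483200 and went from 154 to 7 counts in HY33 and from 164 to 1 in HY9115, summed over 3 libraries. The largest rises were those of Ah18g349800 and Ah08g273400, annotated as exo-polygalacturonases (K01213), enzymes that take single units off the chain end. Ah18g349800 held 2 counts at 0 h in either cultivar and 265 in HY33 and 372 in HY9115 at 48 h. Ah08g273400 went from 2 to 199 counts in HY33 and from 9 to 245 in HY9115.

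Late in salt, several other genes of the polygalacturonase list differed between the cultivars. At 48 h 7 of the 31 were higher in HY33 than in HY9115 and 1, Ah15g483200, was lower, where 5.97% of all genes tested were higher and 3.06% lower. The difference of the cultivars' changes from 0 to 48 h was positive for 9 of the 31 and negative for 0, where 5.04% and 2.95% of all genes passed. Among the 9, Ah14g426300 had a difference of 2.97 ± 0.18 on the log2 scale and Ah13g607200 one of 3.12 ± 0.30 (SE), named after their values were seen. The 31 include Ah03g578600, which may not be a polygalacturonase. It stood at 2.06 ± 0.226 FPKM in HY33 and 0.397 ± 0.0666 in HY9115 at 48 h (SD, n = 3).

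**Figure D5:**
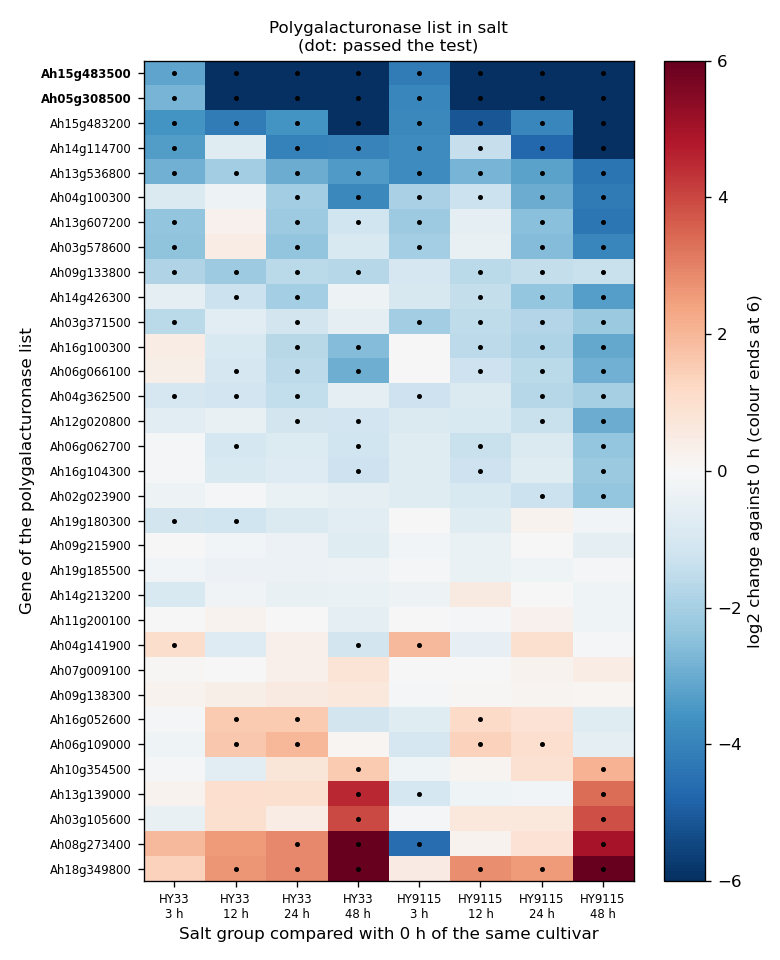
Each line is 1 of the 33 tested genes of the polygalacturonase list, members in bold, each column a salt group, and the colour the log2 change against 0 h of the same cultivar (colours end at 6), with a dot where the gene passed the test. The members head the order of mean change, 20 of the 31 others fell at least once (12703 of all 42311 genes tested did), and the last genes rose at 48 h.

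Genes for other steps of pectin handling did not move as one. Of 8 lists made by identifier, that for expansins, made by 1 KEGG identifier, matched no gene, and the others are given at 48 h. The empty list does not show that the table lacks expansins. At that time 20.1% of all genes tested fell and 14.3% rose in HY33, and 21.3% fell and 14.5% rose in HY9115. Of 9 exo-polygalacturonases 1 fell and 4 rose in each cultivar, and 6 of the 9, the 4 risers included, are already among the 31 polygalacturonases above. Of 26 pectate lyases, which cut pectin by elimination, 19 fell and 0 rose in each cultivar. Ah20g134700 was among them, with 1205 counts in HY33 and 1298 in HY9115 at 0 h and 54 and 8 at 48 h. Ah10g375600, also a pectate lyase, went from 834 to 8 counts in HY33 and from 511 to 1 in HY9115.

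Pectinesterases moved both ways, with 33 of 74 lower and 19 higher in HY33 and 37 lower and 18 higher in HY9115 at 48 h, set against the same shares of all genes. Ah02g327100 rose from 1 to 900 counts in HY33 and from 10 to 1315 in HY9115, and Ah12g381400 rose from 2 to 630 and from 2 to 530. Of 56 galacturonosyltransferases 16 fell in each cultivar, and 2 rose in HY33 and 1 in HY9115. Ah11g019600 fell by 2.01 in HY33 and fell by 2.78 in HY9115 on the log2 scale, and Ah01g080100 fell by 2.03 in HY33 and fell by 2.30 in HY9115. Of 7 rhamnogalacturonan endolyases, which cut the branched pectin, 3 fell in each cultivar, and 2 rose in HY33 and 1 in HY9115. Ah17g477300 fell by 2.94 in HY33 and fell by 2.42 in HY9115, and Ah08g104000 fell by 2.58 in HY33 and fell by 3.33 in HY9115. Xyloglucan endotransglucosylases, which remodel the hemicellulose rather than the pectin, numbered 41, of which 20 fell and 5 rose in HY33 and 18 fell and 8 rose in HY9115. Ah08g180400 fell from 65.9 to 3.00 FPKM in HY33, and in HY9115 its counts, another unit, went from 14240 to 127 over 3 libraries. With 1 library left out at a time, its log2 change ran from -4.18 to -3.94 in HY33 and from -6.62 to -6.43 in HY9115. Ah15g059100 went from 89 to 4 counts in HY33 and from 60 to 0 in HY9115.

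The genes whose pattern was most like that of the members were annotated to several functions. Likeness was measured as Pearson's r of log2 counts scaled to library size over all 30 libraries. The candidates were 19225 tested and annotated genes with a mean FPKM of at least 5 in some group. The libraries share the salt time course, so the values are a description. The members correlated with each other at 0.975. Ah16g106600 came first for both, at 0.981 with Ah15g483500 and 0.979 with Ah05g308500, and Ah19g191600 was also among the 5 nearest of both, at 0.976 and 0.968. Both are annotated with lateral root formation and cell wall loosening. Ah16g106600 held 880 counts at 0 h, 173 at 3 h, 2 at 12 h, 3 at 24 h and 0 at 48 h in HY33, summed over 3 libraries. In HY9115 it held 798, 207, 3, 0 and 0. It too held 0 to 3 counts a group from 12 h on, and in water it stood at 11.4 ± 1.21 FPKM in HY33 and 10.6 ± 1.68 in HY9115 (SD, n = 3).

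Ah01g293200, a class III peroxidase, was also near both, at 0.972 and 0.966. Ah15g483500 further had Ah19g033900, a dioxygenase, at 0.970 and Ah12g005300, annotated as a neomenthol dehydrogenase, at 0.969. Ah05g308500 had the peroxidase Ah11g493600 at 0.973 and the nicotianamine synthase Ah07g300600, whose product binds metals, at 0.966. By the rank correlation over the 10 group means, 0 of the 5 nearest were shared with those by Pearson's r for either member.

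Whole plants were sampled, so the levels of organ markers are given beside the members. The summed FPKM of 190 genes annotated to root hair, root cap and lateral root development or nitrate transport went from 3043 ± 72.7 at 0 h to 2255 ± 6.65 at 3 h and 2084 ± 15.6 at 48 h in HY33 (SD, n = 3). In HY9115 it went from 2774 ± 41.4 to 2117 ± 53.4 and 2011 ± 111. FPKM is scaled by library total, which at 48 h lowers the sums of every list relative to the normalised library sizes. With the latter, the median log2 change of the tested root genes at 48 h was -0.10 in HY33 and -0.14 in HY9115. Of 97 tested genes of that list 4 fell at 3 h and 28 at 48 h in HY33, where 7.45% and 20.1% of all genes fell, and 5 and 29 fell in HY9115, where 6.43% and 21.3% did. The sum of 60 green shoot genes for light harvesting and carbon fixation went from 30784 to 4430 in HY33 and from 25392 to 3840 in HY9115 by 48 h. Of 38 tested genes of that list 30 fell and 0 rose at 48 h in each cultivar. At 12 h, where the members were already under 0.5% of their level in water, the root sum was at 2282 in HY33 and 2375 in HY9115, and the green shoot sum at 9355 and 10729. The part of organ shares in the decline of the members was not tested.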

How the data were processed

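Poly(A) RNA of 30 libraries was sequenced as paired reads, per the labels' protocols. The submitters' processing notes name the tools HTSeq 0.6.1, HISAT2 2.2.1, cutadapt 1.9.1 and DESeq2, per the labels. Genome build, annotation version and strand setting: not given in the sources used here. Reads of overlapping, antisense and near-identical genes therefore cannot be separated. The table deposited by the authors holds whole-number counts per gene and library. Its FPKM values, also made by the authors, equal those counts over exonic length and library total in 100% of values (tolerance 0.005). Reads carry no molecular identifiers.

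Groups and replicate numbers came from the sample titles. A gene was tested if 3 or more libraries reached an FPKM of 1, which left 42311 genes with 99.57% of counts. The tool was edgeR 4.0.16 (R 4.3.3). TMM factors (0.804 to 1.11), 1 fit with a coefficient per group (common biological coefficient of variation 0.0929) and quasi-likelihood tests were used. A gene passed at a Benjamini-Hochberg adjusted p under 0.05, adjusted over all genes tested, and an absolute log2 change of at least 1. There were 17 comparisons, of which 8 set salt against 0 h, 5 the cultivars and 4 their changes. Both members passed the level filter. Folds of counts used normalised library sizes with exact 95% intervals, and a group at 0 was set at 3 counts. The ratio of the members was tested with SciPy 1.17.1.

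The members and gene lists were chosen with earlier results of these data known. Lists were made by KEGG and GO identifiers. Named genes were the 2 polygalacturonases highest at 0 h, the 2 with the largest mean fall and the 2 with the largest mean rise, the others that share K01184, up to 2 genes of each further list with the largest change at 48 h, the 5 most like each member, and the nearest annotated neighbours. A reference table of RefSeq gene names matched 0 identifiers and was not used. Sequences were not used here. Counts were simulated for HY33 at 12 h against 0 h over 42311 genes, with 100 genes changed per size. The changed genes were drawn at random, and all genes shared 1 dispersion. Of the 2-fold changes 85% reached an edgeR adjusted p under 0.05, and of the 8-fold changes 94% did. The rule on the size of the change was not applied to these shares. They do not give the power of tests at the few counts of the members from 12 h on. Alternatives were other size factors, filters, sample sets and tools, DESeq2 1.42.0 among them, a replicate block, and leaving out each library.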

Additional observations from a re-analysis of the deposited data

Results flagged for a closer look

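The difference between the cultivars' changes from 0 to 3 h passed the threshold for both members, which were chosen for those changes, so the values are not independent of the choice. It was 1.02 on the log2 scale for Ah15g483500, where the level was 9.06-fold lower at 3 h in HY33 and 18.4-fold lower in HY9115. It no longer passed in 4 of 12 fits that left out 1 library, with values down to 0.88. It was 1.12 for Ah05g308500, where the level was 6.88-fold lower in HY33 and 15.2-fold lower in HY9115. In both cases the libraries of the cultivars were apart in water and overlapped at 3 h.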

How the results depend on the processing

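The difference of salt changes of Ah15g483500 at 24 h, 2.63, did not pass in the fit as reported and passed with no level filter (2.64), with the replicate block (2.62, edgeR adjusted p = 0.040), with the groups compared alone (2.66) and with DESeq2 (2.73). Among the tests on the members, the replicate block changed no other call. Replicate numbers did not pair the samples: of 39 same-numbered pairs 1 had a correlation of deviations over 0.1 (range -0.12 to 0.11), and 10 of 30 libraries correlated best with their own number. Leaving out 1 library at a time gave, for Ah15g483500, 0.88 to 1.17 at 3 h, 1.28 to 2.35 at 12 h and 2.16 to 3.80 at 24 h for the difference of changes, and -11.68 to -10.04 for the change of HY9115 at 24 h. For Ah05g308500 it gave 0.49 to 5.30 at 12 h and -0.26 to 4.03 at 24 h for the difference of changes, and the sign reversed at 24 h without HY33 replicate 2 (-0.26) and HY9115 replicate 1 (-0.0029). The difference between cultivars of Ah05g308500 ranged from -0.34 to 4.47 at 12 h, with reversed signs in 3 of 6 fits (-0.28, -0.34 and -0.17), and from -1.09 to 3.19 at 24 h, reversed in 2 of 6 (0.26 and 3.19). Its change at 12 h ranged from -8.29 to -7.45 in HY33 and from -13.06 to -8.25 in HY9115, and at 24 h from -13.04 to -9.01 in HY9115, where the lowest HY9115 values left out replicate 2, the only library with counts. The ratio of the members in water was 0.61 to 0.71 over 5 libraries, with an exact permutation p of 0.0625, the smallest 5 can give.

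Counts of other polygalacturonases that rose moved with an FPKM of at least 5 required, to 0, 1, 1 and 3 at 3, 12, 24 and 48 h in HY33 and to 0, 1, 1 and 3 in HY9115. In HY33 at 12 h 6 rose with no filter and 5 with the groups compared alone. In HY9115 at 24 h 1 rose under median-ratio factors, total counts or TPM scaling, and 0 with the groups compared alone. Without 1 library the risers ranged from 0 to 1 at 3 h in HY33, and from 1 to 3 at 12 h and 0 to 3 at 24 h in HY9115. TPM scaling, chosen after seeing the data, moved the median of all genes at 48 h by -0.49 in HY33 and -0.33 in HY9115, and total counts by -0.38 and -0.26. Under TPM scaling 20 other polygalacturonases fell at 48 h in HY33. At 48 h 2 exo-polygalacturonases fell in HY33 under total counts and TPM scaling, and 1 to 2 without 1 library. Galacturonosyltransferases that fell numbered 25 under total counts in both cultivars and 27 in HY33 and 26 in HY9115 under TPM scaling. Risers among them were 1 in HY33 and 0 in HY9115 at an FPKM of 5, 2 in HY9115 with no filter, and 1 to 3 there without 1 library. At an FPKM of 5, 14 pectinesterases fell and 10 rose in HY33, 18 fell and 9 rose in HY9115, and 0 rhamnogalacturonan endolyases moved, since fewer genes were tested. The causes of the other moves were not tested.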

Other observations

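The summed FPKM of 46 seed reserve and glyoxylate cycle genes is given over time. In HY33 it was 721 ± 44.5 at 0 h, 652 ± 19.2 at 3 h, 1248 ± 103 at 12 h, 890 ± 21.1 at 24 h and 756 ± 46.1 at 48 h (SD, n = 3). In HY9115 it was 1772 ± 248, 1426 ± 52.1, 1151 ± 68.4, 727 ± 35.1 and 844 ± 14.2 at those times. No test of the difference was made.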
